A study of Saccharomyces cerevisiae with 2 samples.

Results

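RNA polymerase I is the enzyme that transcribes the ribosomal RNA genes, and Rrn3 is the factor that makes it ready to start. The genes of 7 subunits found in this enzyme alone, with RRN3, make up the 8 genes described here, out of 6868 features on the arrays. They are RPA190 (YOR341W), RPA135 (YPR010C), RPA49 (YNL248C), RPA43 (YOR340C), RPA34 (YJL148W), RPA14 (YDR156W), RPA12 (YJR063W) and RRN3 (YKL125W). They were listed by systematic name and not by a cut on the values, though with earlier results of these data known. All 8 were measured on both arrays. The samples were budding yeast (Saccharomyces cerevisiae) of strain BY4742, a haploid laboratory strain, with the genotype WT his3kan, grown in synthetic complete medium at 30C in batch culture. Salt-stressed cells had been 30 min in 0.7 M NaCl on the first array and 60 min on the second, and on each array they were set against unstressed WT his3kan cells of the same strain, placed by the sample titles at the start of the course of 0, 30 and 60 min. There was 1 array per time, with the stressed cells in the same dye on both arrays, so salt cannot be told apart from dye or from time in culture.

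In growing yeast, polymerase I works on the tandem rDNA repeats in the nucleolus, and ribosomal RNA is the main product of transcription. Its catalytic core is formed by Rpa190 and Rpa135. Rpa49 and Rpa34 form a dimer that helps initiation and elongation, Rpa43 and Rpa14 form a stalk, and Rpa12 serves RNA cleavage and termination. Rrn3 binds the enzyme through Rpa43 and links it to the factors on the promoter. Synthesis of rRNA is known to be cut back when nutrients run out or growth stops.

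Each value below is a log ratio as deposited by the authors. The log base was not given and base 2 was assumed, and all fold values and percentages rest on this. With base 2, -1 stands for a transcript 2-fold lower than in unstressed cells, relative to the other features on the array. Such a value is a difference within a gene and says nothing of which gene is more abundant. On both arrays 10 of 10 textbook salt-induced genes were positive, from 2.23 to 8.32 at 30 min and from 0.34 to 6.53 at 60 min. The sign was therefore taken as likely stressed over unstressed. "Lower" means this direction throughout, and it turns round if the ratio runs the other way. Without replicates no value has an error across cultures and no test was possible. A gene was counted as lower when it was at least 2-fold below 0 (a log2 ratio of -1 or less). The number of arrays limits the precision. Within each array, the 6 near-identical 5S gene features of the rDNA (RDN5) spanned 0.62 log2 units at 30 min and 0.68 at 60 min. Each kept much the same value on both arrays. RDN5-4 had -1.085 and -1.09, RDN5-5 had -0.464 and -0.412, and RDN5-3, which moved most, had -0.684 and -0.542. The span is thus mostly a steady difference between features. It is neither repeat noise nor an error between cultures, so small gaps between genes cannot be judged by it. LEU2, deleted in the usual BY4742 genotype, which was not checked here, had -2.22 at 30 min and -0.77 at 60 min, and URA3, also deleted in that genotype, had 1.56 and 0.20. The other 2 such loci stayed within 2-fold, LYS2 with 0.55 and 0.45 and HIS3 with 0.22 at 30 min and listed at 0 at 60 min. Thus 2 of 4 features that may have no transcript passed 2-fold at 30 min and none at 60 min. Because each ratio compares cells of the same strain, strain markers could not be read from it.

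After 30 min in salt all 7 subunit genes were at least 2-fold lower and RRN3 was not. Their median with RRN3 was -3.36 (10.3-fold lower; interquartile range over the 8 genes -3.78 to -1.94), against 0 over all features. Of all features, 17.3% were at least 2-fold lower at that time. At 60 min only RPA43 and RPA14 were still 2-fold lower, 2 of 8 genes, against 4.32% of all features, and the median was -0.76 (1.69-fold lower; interquartile range -0.96 to -0.68). The 60 min array has the smaller spread over all features, an SD of 0.71 against 1.33 at 30 min. With the SD of the 60 min array brought to that at 30 min, all 7 subunit genes were also at least 2-fold lower at 60 min. On that scale 15.9% of all features were.

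**Figure D1:**
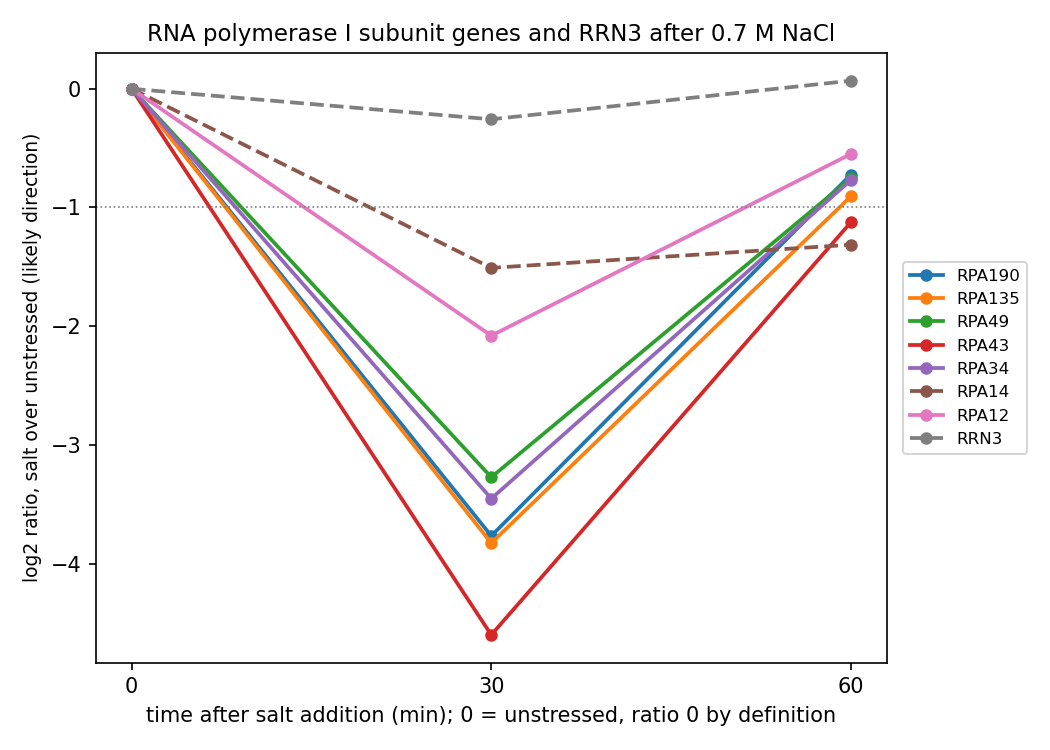
Log2 ratio of salt over unstressed cells (vertical axis) against minutes after salt addition (horizontal axis) for the 8 genes, 1 array per time, with the unstressed state at 0 by definition and the dotted line at 2-fold lower. RPA190, RPA135, RPA49, RPA43 and RPA34 lie between -4.60 and -3.27 at 30 min and between -1.12 and -0.72 at 60 min. On the deposited scale drawn here, RPA14 (dashed) stays near its 30 min value and RRN3 (dashed) stays near 0.

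The catalytic subunits had nearly the same values as each other. RPA190, which encodes the largest subunit, had -3.77 at 30 min and -0.72 at 60 min. RPA135, which encodes the second largest, had -3.83 and -0.91 at these times. On the linear scale, RPA190 stood at 7.34% of its unstressed abundance at 30 min and at 60.6% at 60 min, and RPA135 at 7.05% and 53.4%. The genes differed by 0.06 log2 units at 30 min and 0.18 at 60 min. Whether these gaps exceed the noise of the arrays could not be tested.

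The genes of the Rpa49 and Rpa34 dimer also had like values. RPA49 had -3.27 at 30 min and -0.75 at 60 min. RPA34 had -3.45 and -0.77 at the same times. The partners lay 0.18 log2 units apart at 30 min and 0.02 at 60 min. For these gaps, too, no test against noise was possible.

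The stalk genes were unlike each other. RPA43, whose product carries the contact with Rrn3, had -4.60 at 30 min (24.3-fold lower, 4.12% of the unstressed abundance), and 0.12% of all features had a value as low or lower. RPA14, which encodes its partner in the stalk, had -1.51 (2.85-fold lower, 35.1%). RPA14 was thus 3.09 log2 units above RPA43 at 30 min. At 60 min RPA43 had -1.12 (45.9% of the unstressed abundance) and RPA14 had -1.31 (40.2%), so that the order of the 2 genes was turned round by a difference of 0.19. Whether this last gap exceeds the noise of the array could not be tested.

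On the deposited scale, RPA14 was the one subunit gene that hardly moved between the times. Its 60 min value minus its 30 min value was 0.20, while the 6 other subunit genes had differences of 1.53 to 3.48. At 30 min it ranked 21st from the lowest among the 31 genes that encode subunits of polymerases I, II and III, and at 60 min it was the lowest of them. The 10 other subunit genes with 30 min values between -2 and -1 had values from -0.77 to -0.10 at 60 min. Both the sign and the size of the RPA14 difference depend on the scale of the arrays. The difference was -0.96 once the SD of both arrays was made equal and -1.81 with the arrays matched in quantiles. Its reading frame overlaps the next one, YDR157W, on the same strand in the reference table, and YDR157W had -0.93 at 30 min and -1.23 at 60 min. Whether overlapping features share array probes was not tested.

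RPA12, the gene of the subunit for RNA cleavage, had -2.08 at 30 min (4.23-fold lower) and -0.55 at 60 min (1.46-fold lower). It was thus nearer to 0 at 30 min than the 5 genes from RPA190 to RPA34 in the plot of the course, whose values lay between -4.60 and -3.27. At 60 min it had the value nearest to 0 of the 7 subunit genes. Just outside the 2-fold threshold at 60 min lay RPA135 with -0.91, and just inside it RPA43 with -1.12.

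RRN3 stood outside the pattern of the subunits. It had -0.26 at 30 min (83.7% of the unstressed abundance) and 0.07 at 60 min (105%). Of all features, 38.6% had a value as low or lower at 30 min. The 2 values lie within 2-fold of the unstressed cells and on either side of 0. The gap from RRN3 to the nearest subunit gene, RPA14, was 1.25 log2 units at 30 min.

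Between the times, 6 of the 8 genes had a 60 min value at least 1 log2 unit above the 30 min value, against 11.6% of all features. The median difference over the 8 genes was 2.60, against 0.001 over all features. RPA43 had a difference of 3.48 (11.1-fold on the linear scale), RPA190 of 3.04 (8.25-fold) and RPA135 of 2.92 (7.57-fold). RPA34 had 2.68, RPA49 2.52 and RPA12 1.53. The exceptions were RPA14 with 0.20 and RRN3 with 0.33. The unstressed RNA is named differently on the 2 arrays, and any difference between those RNAs also enters these values. With equal SDs on both arrays, the median difference was 1.93.

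**Figure D2:**
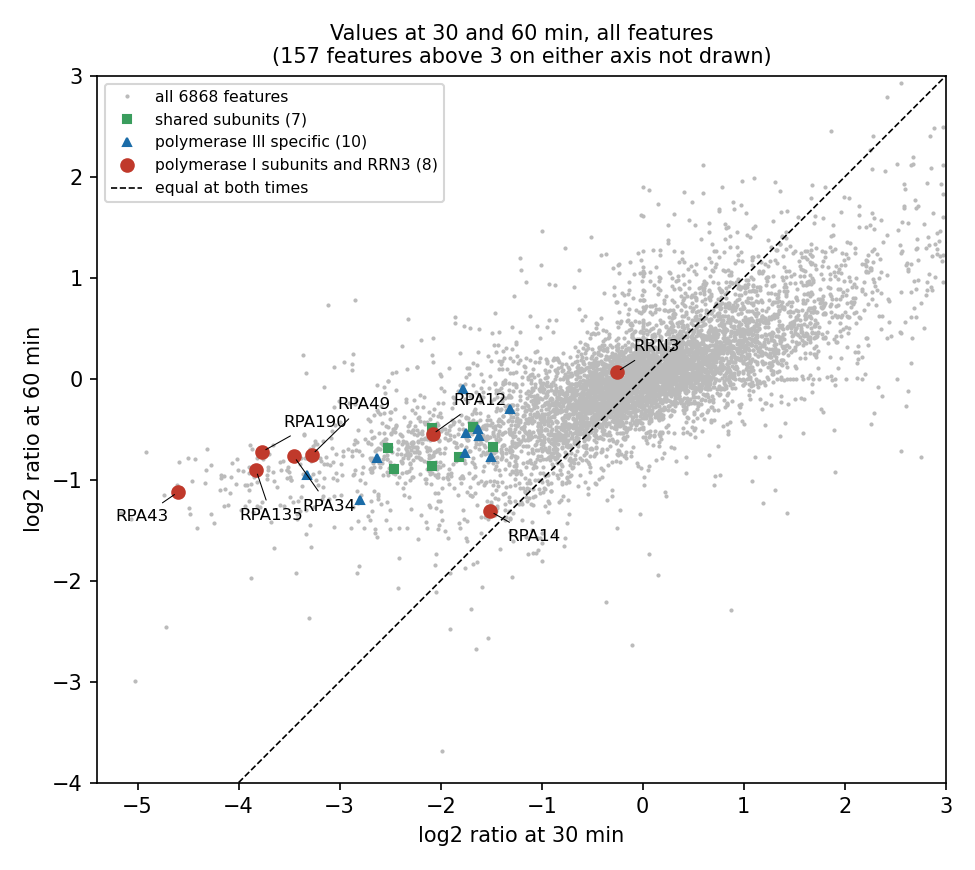
Log2 ratio at 60 min (vertical axis) against log2 ratio at 30 min (horizontal axis), with 1 point per feature on 1 array per time and the 157 features above 3 on either axis not drawn. The 8 genes are named in red, and the dashed line marks equal values at both times. RPA14, with -1.51 and -1.31, is the subunit gene near that line, while RPA43, with -4.60 and -1.12, lies far above it.

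The other subunits of the enzyme are shared with polymerase III or with polymerases II and III. At 30 min all 7 shared subunit genes had values past 2-fold lower, against 17.3% of all features. Their median was -2.08 (4.24-fold lower), with values from -2.52 to -1.48. The genes of the assembly dimer common to polymerases I and III came lowest, RPC19 with -2.52 and RPC40 with -2.46. RPB10 and RPB8, for small subunits of all 3 enzymes, had -2.08 each, RPB5 had -1.82, RPO26 -1.68 and RPC10 -1.48.

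At 60 min, where 4.32% of all features were at least 2-fold lower, none of the shared subunit genes was (median -0.69). Their values ran from RPC40 with -0.90, RPB8 with -0.87 and RPB5 with -0.77 through RPC19 with -0.69 and RPC10 with -0.67 to RPB10 and RPO26 with -0.48 each. The range at 30 min did not overlap that of RPA190, RPA135, RPA49, RPA43 and RPA34, whose highest value was -3.27, while RPA12 and RPA14 lay within it. At 60 min the ranges did overlap. The gap at 30 min is built in, because RPA12 and RPA14, which were left out, had the highest 30 min values among the polymerase I subunit genes. All 7 of those genes together ran from -4.60 to -1.51 at 30 min and overlapped the shared subunits.

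Subunits specific to polymerase III, the enzyme for 5S rRNA and transfer RNA, were also lower together at 30 min, and those specific to polymerase II, which makes messenger RNA, were not. All 10 polymerase III genes were at least 2-fold lower, against 17.3% of all features. The median of these genes was -1.75, from RPC25 with -3.32 to RPO31 with -1.32. None of the 7 polymerase II genes passed 2-fold (median -0.20), where 17.3% of all features were lower and 15.8% higher. Their values ran from RPB9 with -0.91 to RPB4 with 0.06. The order of the medians at 30 min was therefore polymerase I genes, shared subunits, polymerase III and polymerase II. At 60 min the medians were -0.65 for polymerase III and -0.18 for polymerase II. RPC31, the lowest of the polymerase III genes at that time, was the one past 2-fold, with -1.20, against 4.32% of all features.

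**Figure D3:**
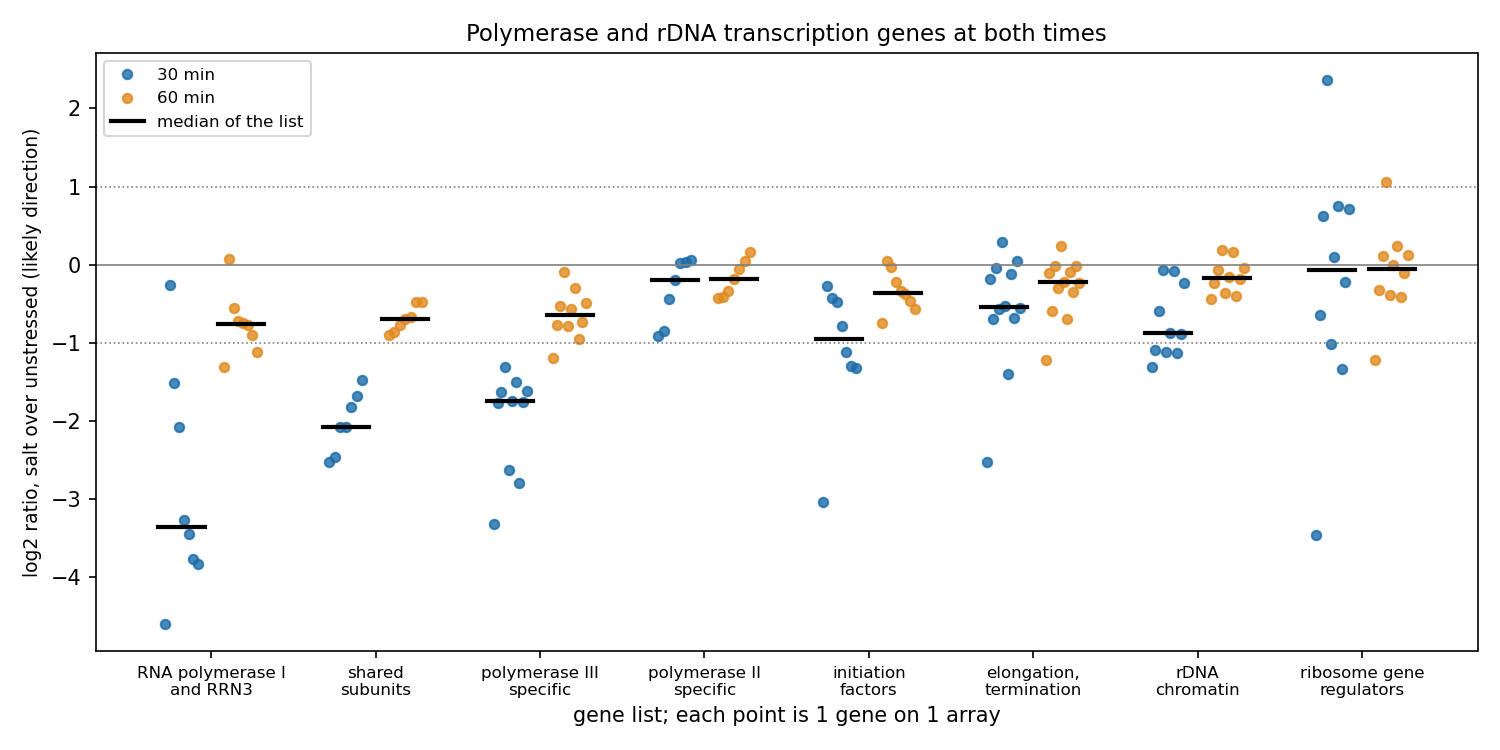
Log2 ratio of salt over unstressed cells (vertical axis) for the genes of each list (horizontal axis) at 30 min (blue) and 60 min (orange), 1 point per gene and array, with the list median as a black bar and dotted lines at 2-fold. The median of the polymerase I genes with RRN3 is -3.36 at 30 min, against -2.08 for shared subunits, -1.75 for polymerase III and -0.20 for polymerase II.

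Subunits that hold the same position in the 3 enzymes can be set side by side. These pairings follow textbook homology and were drawn up after the values were seen. For the largest subunit, RPA190 had -3.77 at 30 min, RPO31 of polymerase III had -1.32 and RPO21 of polymerase II had 0.02. For the second largest, RPA135 had -3.83, RET1 -1.78 and RPB2 -0.20. The polymerase I value minus the polymerase III value was -2.45 for the largest and -2.05 for the second largest subunit. At 60 min these differences were smaller, -0.43 and -0.81.

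The stalk of polymerase III had unequal values too. RPC25, the counterpart of RPA43, had -3.32 at 30 min, and RPC17, the counterpart of RPA14, had -1.75. In both enzymes the RPB7-like gene was the lower one at 30 min, RPA43 minus RPA14 being -3.09 and RPC25 minus RPC17 being -1.57. In polymerase II the pair RPB7 and RPB4 had 0.03 and 0.06. At the position of RPA14 polymerase I was not the lower one at 30 min, since RPA14 minus RPC17 was 0.24, but it was -0.78 at 60 min. For the cleavage subunit, RPA12 had -2.08, RPC11 had -1.50 and RPB9 had -0.91 at 30 min. At 60 min RPC11 was the lowest of them with -0.77, against -0.55 for RPA12 and -0.41 for RPB9.

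**Figure D4:**
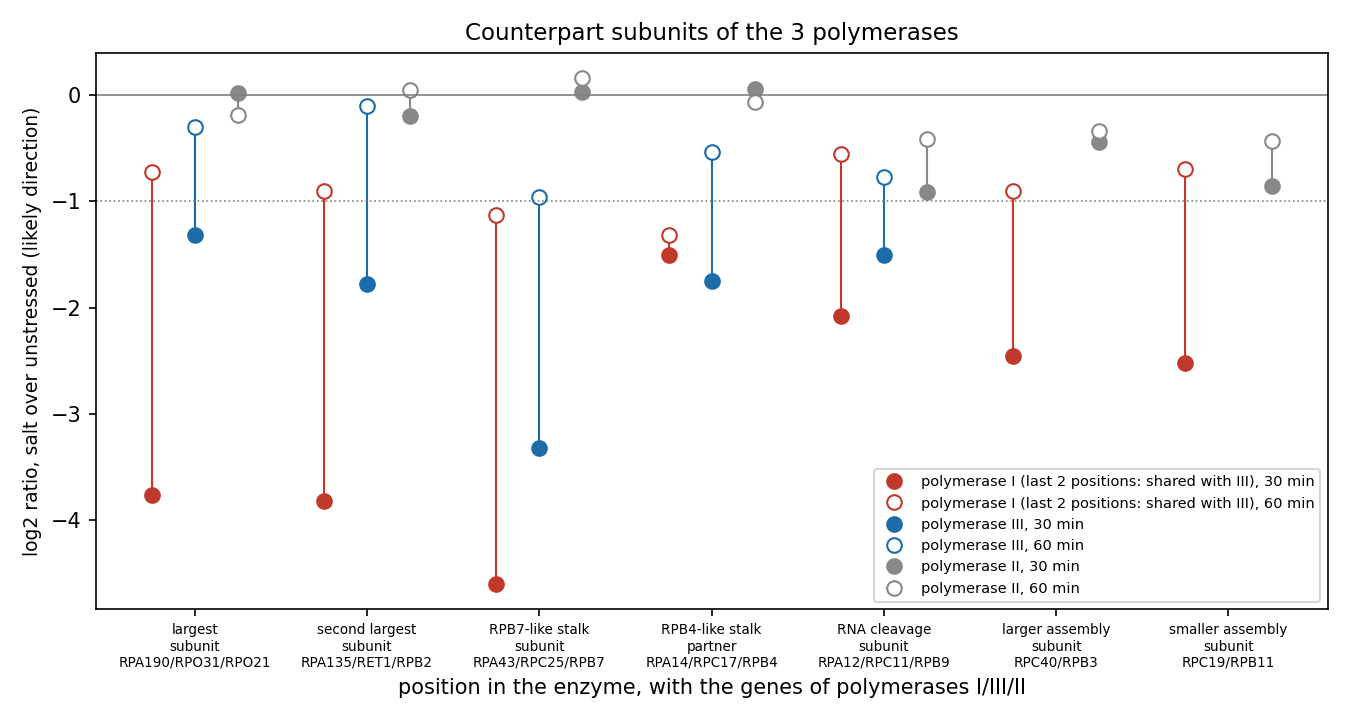
Log2 ratio of salt over unstressed cells (vertical axis) for subunits in like positions of polymerases I, III and II (horizontal axis), at 30 min (filled) and 60 min (open), 1 array per time. Red is polymerase I, blue polymerase III and grey polymerase II. RPC40 and RPC19 serve polymerases I and III and are drawn once, in red. The polymerase II genes lie between -0.91 and 0.16 at both times.

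The promoter factors that Rrn3 and the enzyme meet at the rDNA varied from gene to gene. At 30 min 4 of 8 initiation factor genes were past 2-fold lower (median -0.95), against 17.3% of all features. At 60 min none was (median -0.36), where 4.32% of all features were. In the core factor, which places the polymerase at the start site, RRN11 had -3.04 at 30 min, RRN7 had -1.32 and RRN6 had -0.42. At 60 min RRN11 had -0.74, RRN7 -0.34 and RRN6 -0.04. RRN11 had the lowest 30 min value of the list. It lay within the range of the 7 polymerase I subunit genes (-4.60 to -1.51), above RPA190, RPA135, RPA49, RPA43 and RPA34 (-4.60 to -3.27).

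In the upstream activation factor, which binds farther from the start site, UAF30 had -1.30 at 30 min and -0.38 at 60 min. RRN9 had -0.78 and -0.23, RRN10 had -0.48 and 0.05, and RRN5 had -0.27 and -0.47. Of these 4 genes UAF30 was the one past 2-fold at 30 min; the histones H3 and H4, which also belong to the complex, were not in the list. SPT15, the TATA-binding protein used by all 3 polymerases, had -1.12 at 30 min and -0.56 at 60 min.

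Genes of later steps on the rDNA were near the background share at 30 min. Those of rDNA chromatin had a higher share, but with 10 genes, and the values past 2-fold were only -1.31 to -1.09. Of 12 genes for elongation, termination and early cleavage of rRNA, 2 were past 2-fold lower at 30 min, against 17.3% of all features, and the list median was -0.54. RNT1, the endonuclease that cuts the precursor, had -2.53 at 30 min and -1.23 at 60 min, and was the 1 gene of this list past 2-fold at 60 min. CDC73 of the Paf1 complex had the highest value at 30 min, 0.29. Of 10 genes for rDNA chromatin, silencing and the replication fork block, 4 were 2-fold lower at 30 min, against the same 17.3% (median -0.88), and none at 60 min, against 4.32% (median -0.17). FOB1, the fork block protein, had -1.31 and LRS4 had -0.07 at 30 min.

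Of 10 regulators of ribosome production genes, 3 had values at least 2-fold lower at 30 min and 1 was at least 2-fold higher (median -0.06). Of all features 17.3% were lower and 15.8% higher by that much, so with 10 genes these counts are near the background. TOD6, which encodes a repressor of ribosome biogenesis genes, had -3.46 at 30 min and -1.22 at 60 min, near the values of the subunit genes. CRF1, which encodes a corepressor of ribosomal protein genes, had 2.36 and 1.06.

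The features on either side of the 8 genes on the chromosome mostly did not share their values. RPA43 and RPA190 are themselves neighbours, transcribed away from each other, and at 30 min RPA43 was 0.83 log2 units below RPA190. Apart from them, 13 neighbouring features were measured, with a median of -0.57 at 30 min. Of these, 2 were at least 2-fold lower at 30 min, YOR342C beyond the end of RPA190 with -2.45 and CRS1, the cysteinyl-tRNA synthetase gene divergent from RPA49, with -1.48. A further 2 were 2-fold higher, NTA1 beside RPA12 with 1.03 and SSH4 beside RRN3 with 1.59. Both counts are near the background of 17.3% lower and 15.8% higher over all features.

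The other neighbours lay within 2-fold at 30 min. UBC11 beside RPA43 had -0.89, SUT2 beside RPA135 had -0.86 and the small nucleolar RNA gene snR190 beside RPA34 had -0.59. CCT5 beside RPA12 had -0.57, CPR1 beside RPA14 had -0.32 and MPA43 beside RPA49 had -0.22. SMT1 beside RPA34 had -0.07 and YPK1 beside RRN3 had 0.68. At 60 min the 1 neighbour at least 2-fold lower was YDR157W, which overlaps RPA14.

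**Figure D5:**
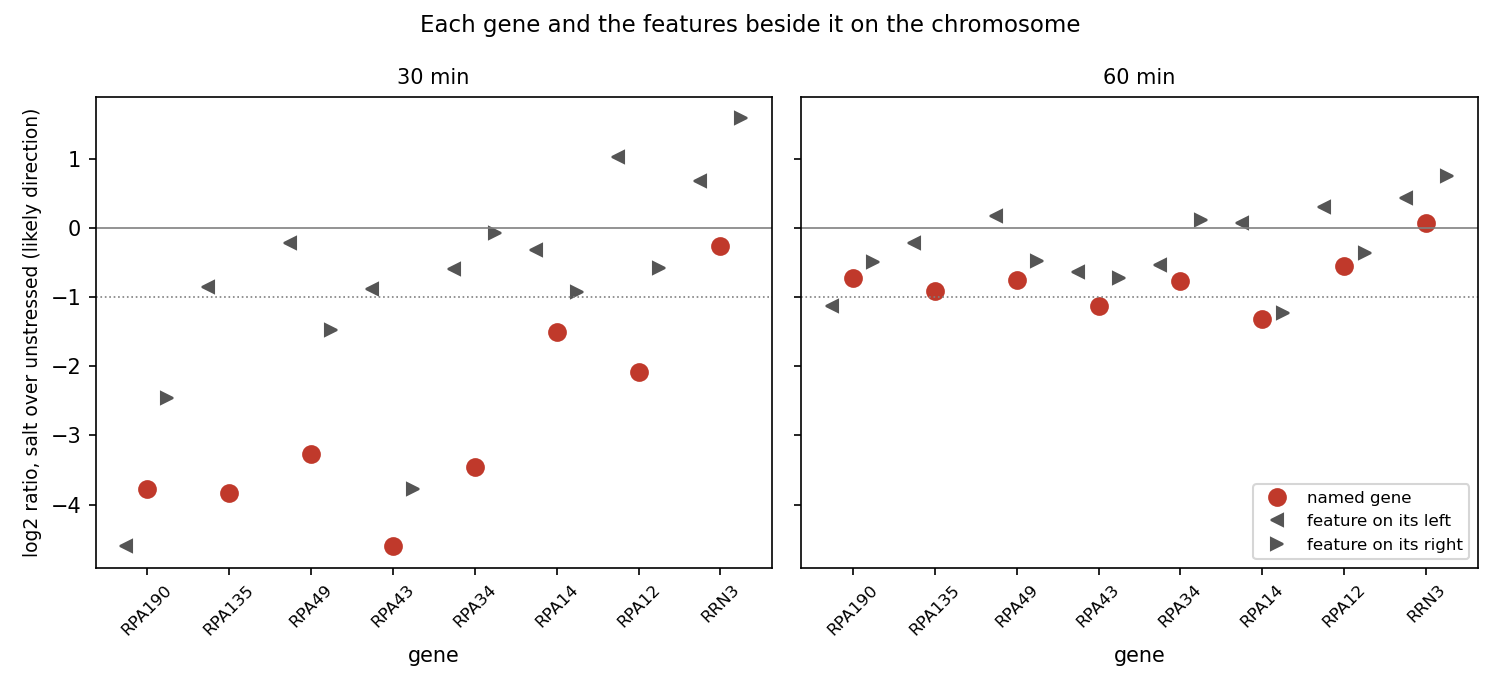
Log2 ratio of salt over unstressed cells (vertical axis) for each of the 8 genes (red circles) and the measured features on its left and right in chromosome order (grey triangles), at 30 min in the left panel and 60 min in the right, 1 array per time. At 30 min each subunit gene lies below its neighbours, except that RPA43 and RPA190 neighbour each other. At 60 min YDR157W (-1.23) lies close to RPA14 (-1.31).

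Outside the lists, the 5 features nearest to the median pair of values of the 8 genes (-3.36 at 30 min and -0.76 at 60 min) were CBF5, OGG1, TSR1, NOG2 and TRM2, at Euclidean distances of 0.03 to 0.05 over the 2 arrays. CBF5, the pseudouridine synthase that modifies rRNA, had -3.38 and -0.79. TSR1 and NOG2, which act in assembly of the small and the large ribosomal subunit, had -3.32 and -0.78 each. OGG1, a DNA glycosylase, had -3.34 and -0.78, and TRM2, a transfer RNA methyltransferase, had -3.32 and -0.73. With 2 values per feature, likeness of this kind is shared by many: 64 other features lay nearer to that median pair than RPA190 did, and 713 lay nearer than RPA14.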

How the data were processed

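RNA of stressed and unstressed cells was compared on 2 NimbleGen tiling arrays of 2 colours, 1 per time. The values are log2 ratios as the authors deposited them, 1 per feature. Background correction, normalization, the combining of probes, the log base, the sign and the build were not given in the sources used here. Each column has a median of 0 and so appear centred. Base 2 was assumed, and the sign was taken from 10 salt-induced genes. Exactly 0 stood in 63 features at 30 min and 75 at 60 min, none of them among the 8 genes.

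The RefSeq table (assembly R64) held 5984 of the feature names as locus tags and was used for names and neighbours only. With 1 array per time no test was made. Differences are described by size, at least 2-fold, beside all 6868 features. Lists of 68 genes were matched by symbol, all measured. The text names the 8 genes, all shared subunits and initiation factors, the extremes at 30 min of the other lists, chromosomal neighbours and the 5 nearest features. RPC31, the counterparts and the rDNA features were chosen after their values were seen. The 8 genes and the lists were chosen with earlier results of these data known. Thresholds, centring, array scale, log base and membership were varied. Promoter motifs were not analysed here. Counting was tested on simulated data. Python 3.11.15, numpy 2.4.6 and pandas 2.3.3 were used.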

Additional observations from a re-analysis of the deposited data

Results flagged for a closer look

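Several genes had values of opposite sign at the 2 times, with 1 array each, and the difference was not tested. All of these values lie within 2-fold of the unstressed cells. RRN3 had -0.26 at 30 min and 0.068 at 60 min. RRN10 had -0.48 and 0.053, CDC73 had 0.29 and -0.09, and RPB4 had 0.056 and -0.058. Among the neighbours, MPA43 had -0.22 and 0.18, SMT1 had -0.072 and 0.11, and CPR1 had -0.32 and 0.067.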

How the results depend on the processing

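The count of 7 of the 8 genes at least 2-fold lower at 30 min (17.3% of all features) was kept by other centring (16.3%). It was 6 at 3-fold (9.76%). It was also 7 at 1.5-fold (26.6%) and with natural logs (23.8%), changes that could only keep or raise it. Both rescalings changed the 60 min array only, so this count could not move. With the shared subunits added it was 14 of 15. The count at 60 min, 2 as deposited (4.32% of all features), was 6 at 1.5-fold (13.8%) and 0 at 3-fold (0.597%). With the 60 min array rescaled to the SD of the 30 min array it was 7 (15.9%). It was 7 with matched quantiles (17.3%) and 6 with natural logs (10.6%). The medians at 30 min, at 60 min and of the difference were -3.31, -0.74 and 2.57 when centred on features with a gene symbol. They were -4.85, -1.10 and 3.75 as natural logs, -2.08, -0.75 and 1.56 with the shared subunits added, and -3.45, -0.77 and 2.68 without RRN3. Rescaled, the 60 min median and the difference were -1.43 and 1.93, and with matched quantiles -1.73 and 1.60. None of these 3 medians changed sign. Natural logs multiply every value alike and so could not change a sign. Rescaling could not change the sign of the 30 or 60 min median, and matching quantiles left the 30 min array as it was. The 60 min minus 30 min value of RPA14, 0.20 as deposited, was -0.96 rescaled and -1.81 with matched quantiles. The scale between the arrays is unknown, so the size of the change from 30 to 60 min, and its sign for RPA14, are not settled. No paired analysis was possible because the labels give no replicate numbers and each time has 1 array. Intensities were not used here, so signal over background is unknown.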

Other observations

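The rDNA unit that polymerase I transcribes is listed as 2 features (RDN37-1 and RDN37-2), looked up after the other values were seen. RDN37-1 had -0.49 at 30 min and -0.47 at 60 min, and RDN37-2 had -0.19 and -0.30. Both lie within 2-fold of the unstressed cells at both times. Total RNA holds mostly mature rRNA, so these values cannot be read as the rRNA precursor alone. How the cDNA was primed was not stated in the labels. The 6 features of the 5S gene had values from -1.09 to -0.46 at 30 min and from -1.09 to -0.41 at 60 min. At 60 min, 2 of these 8 rDNA features were lower than the median of the polymerase I genes with RRN3 (-0.76), RDN5-1 with -0.78 and RDN5-4 with -1.09.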
